A study of Arabidopsis thaliana with 21 samples.

Results

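The WRKY transcription factor family of Arabidopsis thaliana was followed gene by gene through 7 groups of seedlings that differed in light and in the state of HY5. Family members were the genes of the count table that carry a WRKY name or, for 5 of them, a WRKY synonym in RefSeq (ZAP1 for WRKY1, TTG2 for WRKY44, ABO3 for WRKY63, RRS1 for WRKY52 and TTR1 for WRKY16). This gave 72 loci of 32833 genes in the table, and 53 of them, with at least 10 counts in at least 3 libraries, are described as measured members. The table also writes WRKY in its family column for 723 other genes, most often genes annotated as kinases or immune receptors, and these were left aside because their names and domains are not those of the family. The 19 loci with too few counts were WRKY8, WRKY10, WRKY12, WRKY30, WRKY34, WRKY38, WRKY41, WRKY43, WRKY51, WRKY54, WRKY55, WRKY59, WRKY62, WRKY64, WRKY66, WRKY67, WRKY68, WRKY71 and WRKY74. The annotation in the table gives the WRKY domain to 70 of the 72 loci, the exceptions being WRKY39 and WRKY45.

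WRKY factors are plant transcription factors named after a conserved amino acid stretch in a zinc-binding domain, which recognises the W-box, a short DNA element with the core TTGAC. Many members act in immunity, where they are activated or induced downstream of MAP kinases and salicylic acid, and they often regulate each other. Others take part in senescence, phosphate supply, heat tolerance, abscisic acid signalling and trichome or seed coat development. The family is divided by domain number and sequence into group I, with a pair of domains, groups IIa to IIe, and group III.

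All samples were whole seedlings of 7 days, with 3 biological replicates in each group. WT (Col-0) and hy5, a mutant of the light-responsive bZIP factor HY5, were kept in growth light or spent 2 h in high light, at photon flux densities of 100 and 500 µmol m-2 s-1. The other 3 groups were kept in growth light only and were hy5 plants with HY5-GFP driven by the constitutive 35S promoter. Their HY5 carried the original lysine (K87K), a glutamine in its place (K87Q) or an arginine in its place (K87R). The study asked how acetylation of HY5 affects its function under high light. Glutamine is commonly used to imitate an acetylated lysine and arginine a lysine that cannot be acetylated. The labels name 1 line for each construct, and the suffix after hy5 in the design text is the same for K87K and K87Q and different for K87R, so construct, line and background cannot be told apart. No allele is given for the group called hy5.

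Library totals ran from 7283290 to 22101539 counts. CPM give the count as a share of the scaled library total. Before scaling, 1 count was worth 0.0675 CPM at the median depth. HY5 itself stood at 7.01 to 9.86 CPM in WT in growth light, at 41.9 to 106.5 in WT in high light, at 0 to 1.24 in both hy5 groups and at 211.5 to 409.5 in the HY5-GFP lines. The replicate 3 libraries of WT and of hy5 in high light stood apart from the other replicates of their groups. Their share of plastid counts was 6.52% and 7.3% (4.15% or less elsewhere), and their 6 shoot markers summed to 5511 and 1931 CPM, against 22260 or more in every other library. Results in high light are therefore given with and without these 2 libraries where that matters. Over 7 root markers the summed level was 2510 to 2977 CPM in WT in growth light, 370.5 to 535.7 in WT in high light, 2318 to 2322 in hy5 in growth light and 279 to 859.6 in hy5 in high light. It was 2508 to 3047 in K87K, 979.8 to 1228 in K87Q and 1339 to 1495 in K87R. Most of this sum was BGLU23. The other 6 summed to 131 to 155.4 CPM in WT in growth light and 12.6 to 236.5 in high light, where EXPA7 and CASP1 were higher in replicates 1 and 2. They summed to 193.9 to 204.4 in hy5 in growth light and 2.11 to 68.5 in high light, and to 131 to 199.5 in K87K, 21.2 to 34.7 in K87Q and 28.2 to 30 in K87R. In these whole-seedling samples fewer cells of a type and less RNA per cell cannot be told apart.

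Members are tied together by the DNA that codes the conserved heptad of the WRKY domain, so that stretch was read from the RefSeq genome (TAIR10.1) for all 72 loci. It spans 21 bases, and 69 members carry at least 1 copy that codes the common form. The other 3, WRKY50, WRKY51 and WRKY59, carry a lysine codon at codon 6 in place of the glutamine codon. In group I 12 of 14 members hold 2 stretches, and every member of the other groups holds 1. The stretches of 7 members that return in the results and of the variant member WRKY50 follow, with codon 6 in capitals, to show how far synonymous codons differ between genes of 1 family.
WRKY22, chr4:523503-523523, minus strand: tggcgaaagtacggaCAGaaa
WRKY27, chr5:21411583-21411603, plus strand: tggcgtaaatacggtCAAaaa
WRKY18, chr4:15384316-15384336, plus strand: tggaggaaatacggaCAAaag
WRKY40, chr1:30384789-30384809, plus strand: tggaggaaatatggaCAGaaa
WRKY7, chr4:12572887-12572907, plus strand: tggagaaaatatggtCAAaaa
WRKY15, chr2:9925831-9925851, plus strand: tggaggaaatacggaCAAaaa
WRKY6, chr1:23017701-23017721, minus strand: tggagaaaatatggcCAGaag
WRKY50, chr5:9147579-9147599, minus strand: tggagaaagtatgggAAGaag

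WRKY genes are known to be regulated through W-boxes in their own promoters, so the 300 bases before each annotated gene start were searched on both strands for TTGACC or TTGACT. A W-box was present in 21 of 53 measured members (39.6%), against 32.0% of the 20060 tested genes with such a window. The G-box CACGTG, an element to which HY5 can bind, was present in 4 members (7.55%), against 8.13% of all windows. The heat shock element core GAANNTTC was present in 7 members (13.2%), against 11.2%. The windows of WRKY33 and WRKY15 are shown because they hold 3 and 2 W-boxes (capitals, with AGTCAA and GGTCAA the motif on the other strand). That of WRKY22 is shown because this gene moved most and its window holds neither TTGACC nor TTGACT, although it holds the core TTGAC. The G-box of WRKY15 starts 167 bases before the gene. Matches are a description of letters and not of binding, and the windows were read from the RefSeq genome at the gene starts that the table also gives.
WRKY33, chr2:16107935-16108234, plus strand: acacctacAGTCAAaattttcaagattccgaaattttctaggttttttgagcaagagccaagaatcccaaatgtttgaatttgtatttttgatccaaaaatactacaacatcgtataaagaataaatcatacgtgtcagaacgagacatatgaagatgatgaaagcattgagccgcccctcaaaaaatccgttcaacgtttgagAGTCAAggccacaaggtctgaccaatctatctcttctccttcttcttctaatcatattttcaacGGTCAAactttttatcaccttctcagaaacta
WRKY15, chr2:9924586-9924885, plus strand: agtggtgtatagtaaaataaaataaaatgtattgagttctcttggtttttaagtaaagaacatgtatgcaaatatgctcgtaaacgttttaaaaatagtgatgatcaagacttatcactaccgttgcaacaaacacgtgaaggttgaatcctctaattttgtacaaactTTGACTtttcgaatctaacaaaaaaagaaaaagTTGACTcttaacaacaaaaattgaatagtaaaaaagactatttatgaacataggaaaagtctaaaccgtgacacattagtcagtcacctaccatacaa
WRKY22, chr4:524250-524549, minus strand: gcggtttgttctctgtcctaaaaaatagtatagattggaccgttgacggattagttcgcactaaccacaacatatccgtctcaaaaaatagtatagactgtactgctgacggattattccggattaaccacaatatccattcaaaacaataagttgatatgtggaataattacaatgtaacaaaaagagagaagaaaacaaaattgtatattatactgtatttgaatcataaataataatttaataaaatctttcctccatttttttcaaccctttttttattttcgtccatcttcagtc

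Most WRKY transcripts were scarce in WT seedlings in growth light. Per kilobase of gene model the median level of the measured members was 1.67 CPM per kb, against 4.98 over all genes tested. Above 10 CPM per kb stood 8 members, and 20 stood below 1. The highest was WRKY22, which acts downstream of a flagellin-triggered MAP kinase cascade, at 26.5 ± 2.60 CPM per kb (SD, n = 3). WRKY15, a calmodulin-binding member linked to growth under osmotic stress, followed at 25.9 ± 2.65, which is within the spread of WRKY22. WRKY65 came next at 17.5 ± 1.03, then WRKY11 at 15.9 ± 1.09, WRKY7 at 15.3 ± 0.446 and WRKY21 at 15.1 ± 1.2. From WRKY65 on, the SD intervals of neighbours in this order overlapped. In WT in high light WRKY22 fell to rank 28 of 53, and WRKY15 ranked first at 19.2 ± 4.38 CPM per kb.

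The summed level of the measured members differed between groups, and for hy5 and the lines the order depended on scaling. It was 428.4, 429.2 and 423.7 CPM in WT in growth light and 318.5, 280.3 and 325.6 in WT in high light. In hy5 it was 466.4, 486.2 and 462.4 CPM in growth light, then 253.4, 219.9 and 320.4 in high light. The sums did not overlap between the lights in either genotype. With library totals hy5 replicate 3 in high light stood at 442.4, above the 362.3 to 386.4 of hy5 in growth light, while WT stayed separate. K87K held 512.1, 566.6 and 512.8 CPM, K87Q 310.7, 330.2 and 304.3, and K87R 378.8, 370.3 and 358.6, so that K87Q and K87R lay below hy5 and K87K above it. With library totals K87R lay above hy5, at 535.9 to 581.5, K87Q at 357.8 to 442.6 overlapped it, and K87K stayed above, at 482 to 582.4.

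**Figure D1:**
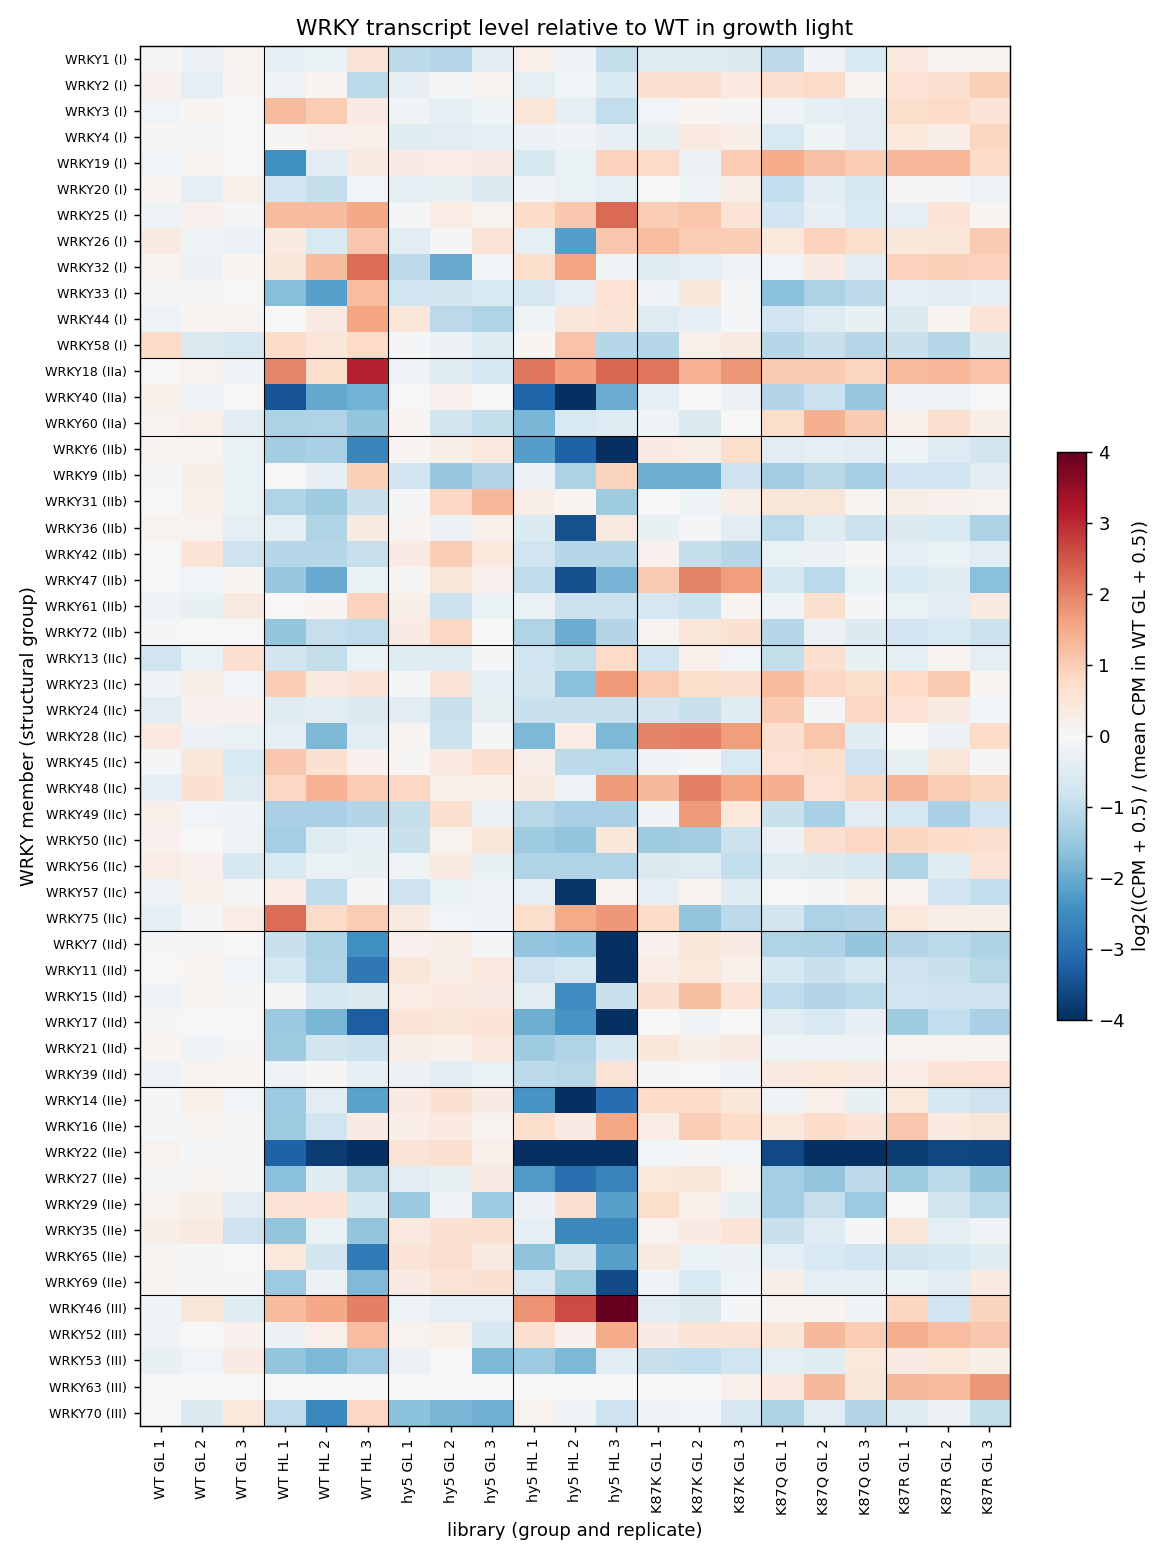
Levels of the 53 measured WRKY members (rows, by structural group) in the 21 libraries (columns, by group and replicate), as log2 of CPM plus 0.5 relative to the mean of WT in growth light plus 0.5, with colours limited at 4 on either side. WRKY22 is dark blue in high light, K87Q and K87R, while WRKY18 is on the red side in high light and in all 3 HY5-GFP lines.

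In WT more WRKY transcripts fell than rose in high light. Of 53 members 11 fell and 4 rose at an adjusted p under 0.05, against 24.8% of all genes tested, where 14% rose and 10.8% fell. The median change was -0.45 on the log2 scale for the members and 0.03 for all genes. Members that fell included the defence-linked WRKY22, WRKY40, WRKY60 and WRKY53 and the calmodulin-binding WRKY7, WRKY17 and WRKY21, and those that rose were WRKY18, WRKY25, WRKY3 and WRKY32.

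WRKY22 (AT4G01250, chr4:522530-524249) held 39.1, 33.1 and 33 CPM in WT in growth light, then 3.26, 2.06 and 0.354 in high light. Every library in high light was far below every library in growth light, while 41.3% of all genes had no overlap between these groups. The change was log2 -4.27 ± 0.74 (SE, adjusted p = 0.00029, edgeR).

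The leucine-zipper members of group IIa, which limit basal defence and take part in abscisic acid signalling, split. WRKY18 (AT4G31800, chr4:15382777-15385100) held 1.18, 1.35 and 1.05 CPM in growth light, then 6.10, 2.24 and 14 in high light. It was higher in all 3 libraries, though replicate 3 was the highest by far, and the change was 2.64 ± 0.51 (adjusted p = 0.00074), or 1.81 ± 0.44 (adjusted p = 0.0015) without the replicate 3 libraries. WRKY40 (AT1G80840, chr1:30383561-30385499) went the other way, from 8.81, 6.69 and 7.52 CPM to 0.251, 1.5 and 1.73 (log2 -2.69 ± 0.65, adjusted p = 0.0049). WRKY60 fell from 1.71, 1.83 and 0.986 CPM to 0.334, 0.374 and 0.177 (log2 -2.37 ± 0.72, adjusted p = 0.020). Within this group of close relatives 1 member therefore rose and 2 fell.

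WRKY25, a member linked to heat tolerance, held 8.29, 10.6 and 9.12 CPM in growth light, then 23.4, 23.2 and 27.9 in high light (log2 1.41 ± 0.35, adjusted p = 0.0054). Its relatives in heat tolerance, WRKY26, WRKY33 and WRKY39, did not pass the test. WRKY3, a group I member that acts in resistance to necrotrophic fungi, moved from 12.5, 14.3 and 13.6 to 32.7, 27.8 and 17.0 CPM (log2 0.94 ± 0.31, adjusted p = 0.0321). WRKY32 rose by 1.69 ± 0.61 (adjusted p = 0.0482), a change that was 1.06 with an adjusted p of 0.099 without the replicate 3 libraries.

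WRKY6, a regulator of senescence and phosphate transport, held 13.1, 12.7 and 9.74 CPM in growth light, then 4.18, 4.49 and 1.5 in high light (log2 -1.82 ± 0.64, adjusted p = 0.043). WRKY17, which limits basal resistance to Pseudomonas, fell from 20.2, 19.4 and 19.4 to 6.76, 5.14 and 1.55 CPM (log2 -2.15 ± 0.68, adjusted p = 0.026). WRKY7 fell from 31.6, 33.5 and 33 to 17.5, 13.3 and 5.53 CPM (log2 -1.44 ± 0.47, adjusted p = 0.03). For these 3 genes the groups did not overlap, as for 41.3% of all genes, and the lowest library in high light was replicate 3. WRKY21 fell by 1.00 ± 0.23 and WRKY72 by 1.43 ± 0.47 (log2, adjusted p = 0.0032 and 0.029). WRKY53, a regulator of leaf senescence, fell from 0.921, 1.11 and 1.66 CPM to 0.0835, 0 and 0.133 (log2 -3.80 ± 1.17, adjusted p = 0.023). WRKY49 and the phosphate-linked WRKY42 had 32 and 25 counts in growth light but 1 and 2 in high light, ratios of 32.95 (95% counting interval 5.50 to 1342) and 12.9 (3.21 to 112.1). Both reached 10 counts in growth-light libraries only, so these falls are no support.

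When each of the 6 libraries was left out in turn, WRKY18, WRKY21, WRKY22, WRKY25 and WRKY40 passed each time, while the other 10 members missed the threshold at least once, with adjusted p up to 0.21. Without the replicate 3 libraries of both genotypes 19 members fell and 5 rose, among 46.6% of all genes, and DESeq2 on all libraries called 21 members, among 30%. WRKY33, an activator of the camalexin pathway and a target of MAP kinases, illustrates the difference. It held 12.8, 13.6 and 13.3 CPM in growth light, then 3.76, 2.52 and 32.1 in high light, so replicates 1 and 2 lay below and replicate 3 above all growth-light libraries. Its change was -0.03 ± 0.60 with all libraries and -2.07 ± 0.30 (adjusted p = 3.6e-06) without them. WRKY70, a salicylate-responsive member, behaved alike, with -0.31 ± 0.65 and -1.91 ± 0.56 (adjusted p = 0.0074).

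In hy5 the same light step changed more members. Of 53, 18 fell and 5 rose, against 36.5% of all genes, where 18.9% rose and 17.7% fell, with a median of -0.61 for the members and 0 for all genes. WRKY22 again showed the largest fall among members with more than 3 counts in each light, followed by WRKY27, WRKY14 and WRKY6. WRKY46 and WRKY18 rose most. WRKY46 reached 10 counts in libraries of high light, K87Q and K87R only, so its rise is no support.

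WRKY22 held 50.6, 55.8 and 40.2 CPM in hy5 in growth light, then 0.991, 0 and 0 in high light. All 3 high-light libraries were at or below 1 CPM, and the change was log2 -7.20 ± 0.88 (adjusted p = 4.9e-06), or -6.37 ± 0.49 without replicate 3. WRKY27, a close relative of WRKY22 that affects wilting caused by Ralstonia, held 2.43, 2.75 and 4.51 CPM in growth light, then 0.330, 0 and 0.124 in high light (log2 -4.26 ± 0.67, adjusted p = 7.4e-05). WRKY14, also of group IIe, fell from 9.85, 12 and 9.90 to 1.12, 0 and 0.496 CPM (log2 -4.20 ± 0.65, adjusted p = 6e-05).

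WRKY6 held 12.9, 13.9 and 15.6 CPM in growth light, then 2.18, 0.816 and 0 in high light (log2 -3.86 ± 0.71, or -3.15 ± 0.34 without replicate 3). WRKY40 held 7.80, 8.68 and 7.52 CPM and then 0.397, 0 and 1.57 (log2 -3.44 ± 0.68, or -5.04 ± 0.62 without replicate 3). WRKY17 held 28.1, 27.4 and 29.2 CPM and then 4.69, 3.47 and 0.0413 (log2 -3.41 ± 0.72, or -2.76 ± 0.24). In each of these genes the lights did not overlap, as for 46.8% of all genes, and the size, not the direction, changed with replicate 3. WRKY7 fell from 36.9, 39.4 and 31.7 to 10.5, 10.2 and 1.41 CPM (log2 -2.30 ± 0.49), and WRKY15 from 40.7, 44.0 and 41.8 to 24.4, 5.50 and 17.7 (log2 -1.40 ± 0.35, adjusted p = 0.0039). WRKY21 fell by 1.39 ± 0.23 and WRKY65 by 1.95 ± 0.52 on the log2 scale.

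WRKY46, a salicylate- and brassinosteroid-linked member of group III, held 0.256, 0.177 and 0.177 CPM in growth light, then 2.51, 4.79 and 18.0 in high light. Every high-light library was above every growth-light library, replicate 3 most of all, and the change was 5.31 ± 1.07 (adjusted p = 0.00076), or 4.10 ± 1.04 (adjusted p = 0.0023) without replicate 3. WRKY18 rose from 0.959, 0.709 and 0.531 to 6.87, 4.79 and 7.90 CPM (log2 3.13 ± 0.53, adjusted p = 0.00015), with all 3 high-light libraries close together. WRKY25 moved from 8.76, 11.5 and 10.4 to 15.8, 20.2 and 47.3 CPM (log2 1.44 ± 0.35), and without replicate 3 by 0.83 ± 0.26 (adjusted p = 0.012). WRKY70 rose from 1.15, 0.974 and 0.884 to 5.22, 4.18 and 2.44 CPM (log2 1.96 ± 0.71, adjusted p = 0.036). WRKY32 also passed, although its libraries overlapped between the lights, with 0.831, 0.177 and 2.03 CPM in growth light, then 3.96, 7.65 and 1.94 in high light.

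Several called members were close to the detection limit in hy5. WRKY56 had 0 counts in high light and 24 in growth light, which makes it at least 10.3-fold lower against a 3-count floor for the group, and WRKY24 with 0 and 6 counts was at least 2.57-fold lower. WRKY42 and WRKY49 had ratios of 28.3 (7.38 to 240.8) and 30.8 (5.03 to 1268). As both count as measured through growth light only, these falls are no support. The remaining called members, WRKY35, WRKY47, WRKY69 and WRKY72, fell by 2.65, 2.27, 2.28 and 2.29 on the log2 scale. DESeq2 called 24 members in this comparison, among 41.5% of all genes. In edgeR, 17 of the 23 calls passed whichever library was left out, and WRKY24, WRKY32, WRKY35, WRKY49, WRKY69 and WRKY70 missed the threshold at least once, with adjusted p up to 0.12. Without the replicate 3 libraries 21 members fell and 7 rose, among 47.4% of all genes.

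**Figure D2:**
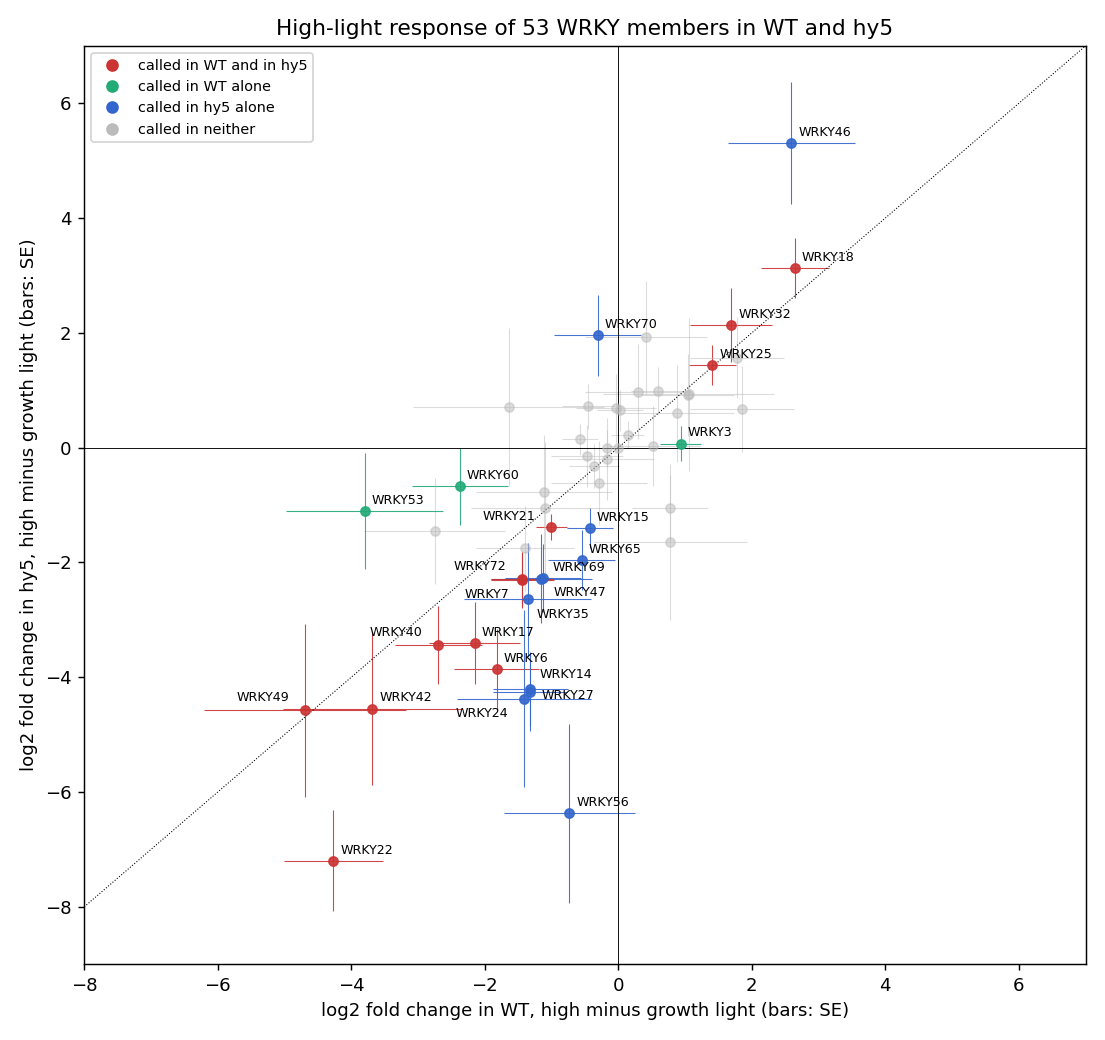
Log2 fold change of each of the 53 members in high minus growth light in WT (horizontal) and in hy5 (vertical), with bars of 1 SE, a dotted line of equal change and colours for members called at an adjusted p under 0.05. WRKY22 lies at -4.27 and -7.20, WRKY18 at 2.64 and 3.13, and WRKY14 and WRKY27 lie well below the dotted line.

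The light responses of WT and hy5 share no library and could be set beside each other. WRKY18, WRKY25 and WRKY32 rose in both and WRKY6, WRKY7, WRKY17, WRKY21, WRKY22, WRKY40, WRKY42, WRKY49 and WRKY72 fell in both. These 12 members made up 80.0% of the calls in WT and 52.2% of those in hy5, and 0 members were called in opposite directions. Both shares include WRKY42 and WRKY49, which reached 10 counts in growth-light libraries only, so their falls are no support. Over all genes the shares were 72.4% and 49.2%. Libraries of like number in high light deviated together across the genotypes (r from 0.159 to 0.483), so the responses are not independent.

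Calls by structural group are given as counts, and the groups were not tested against each other. They stand beside the 24.8% of all genes called in WT and 36.5% in hy5. Without the replicate 3 libraries these shares of all genes were 46.6% and 47.4%. With library totals 1885 genes rose and 2037 fell in WT, and 4176 rose and 2995 fell in hy5, of 20234. In group I, 3 of 12 measured members rose in WT and 2 in hy5, with 0 lower. Without the replicate 3 libraries 2 rose and 3 fell in WT and 3 rose in hy5, and with library totals 0 rose in WT. In group IId 3 of 6 fell in WT and 4 in hy5, or 4 and 6 without the replicate 3 libraries. In group IIb 3 of 8 fell in WT and 4 in hy5 (5 and 4 without them), and in group IIe 1 of 8 fell in WT and 6 in hy5 (2 and 6, with 1 higher in hy5). With library totals 2 members of group IId fell in WT and 5 in hy5, and in group IIb 1 and 4. In group IIc, with 11 of 18 loci measured, 1 fell in WT and 3 in hy5. In IIc 2 members rose and 1 fell in WT without the replicate 3 libraries. Group III had WRKY53 lower in WT and WRKY46 and WRKY70 higher in hy5 among 5 measured of 14. These counts include WRKY42 in group IIb and WRKY49 in group IIc, which fell in both genotypes and count as measured through growth light only. WRKY49 was the 1 member of group IIc that fell in WT. WRKY46 counts as measured through high light, K87Q and K87R only. The calls of WRKY42, WRKY46 and WRKY49 in these counts are therefore no support.

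Whether hy5 changed the light response was tested by the interaction of genotype and light, and 0 of 53 members passed, against 0.089% of all genes. At an unadjusted p under 0.05 there were 8 members, for which no share over all genes was counted. By DESeq2 (1.91% of all genes) WRKY14 and WRKY27 passed (adjusted p = 0.016 and 0.024). In edgeR these 2 had interactions of -2.88 ± 0.83 and -2.94 ± 0.85, both with an adjusted p of 0.19. The count changed with the libraries used. Without the replicate 3 libraries 8 members had a lower and 5 a higher response in hy5, among 25.2% of all genes, with WRKY70 at 4.13 ± 0.77 (adjusted p = 0.00047), WRKY33 at 2.26 ± 0.39 (adjusted p = 0.00022) and WRKY22 at -2.66 ± 0.62 (adjusted p = 0.0033). Without WT replicate 3 in high light alone the count was 8, and without hy5 replicate 1 in high light it was 6.

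In growth light hy5 and WT were compared directly, and 0 members passed, against 0.217% of all genes. At an unadjusted p under 0.05 there were 2 members, for which no share over all genes was counted. DESeq2 called 0 members, against 193 genes higher and 173 lower of 20234. WRKY70 had the largest separation among the members named here, with 4.67, 3.03 and 6.41 CPM in WT and 1.15, 0.974 and 0.884 in hy5 (log2 -2.22 ± 0.71, adjusted p = 0.24). This test uses an estimate of spread shared over all 7 groups, the high-light libraries included. In a fit of the 15 growth-light libraries alone, chosen after seeing the data, 4 members were higher and 3 lower in hy5, among 23.5% of all genes. There WRKY70 was at -2.21 ± 0.41 (adjusted p = 0.00013), WRKY33 at -0.75 ± 0.21 (adjusted p = 0.0075) and WRKY17 at 0.52 ± 0.15 (adjusted p = 0.012).

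In high light 2 members, both of group IIe, were lower in hy5 than in WT, and 0 were higher, against 3.14% of all genes (0.84% higher and 2.3% lower). WRKY27 held 0.752, 2.34 and 1.15 CPM in WT and 0.330, 0 and 0.124 in hy5 (log2 -3.06 ± 0.66, adjusted p = 0.017). WRKY14 held 2.51, 5.61 and 1.37 CPM in WT and 1.12, 0 and 0.496 in hy5 (log2 -2.43 ± 0.63, adjusted p = 0.041). The genotypes did not overlap for either gene, as for 7.7% of all genes. A fit with a replicate block kept 1 of these calls. DESeq2 called 1 higher and 5 lower (8.48% of all genes), and without the replicate 3 libraries 4 were higher and 9 lower, among 30% of all genes. WRKY14 missed the threshold without replicate 1 or 2 of WT or replicate 2 or 3 of hy5 in high light (adjusted p up to 0.20), and WRKY27 without WT replicate 2 (0.072).

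**Figure D3:**
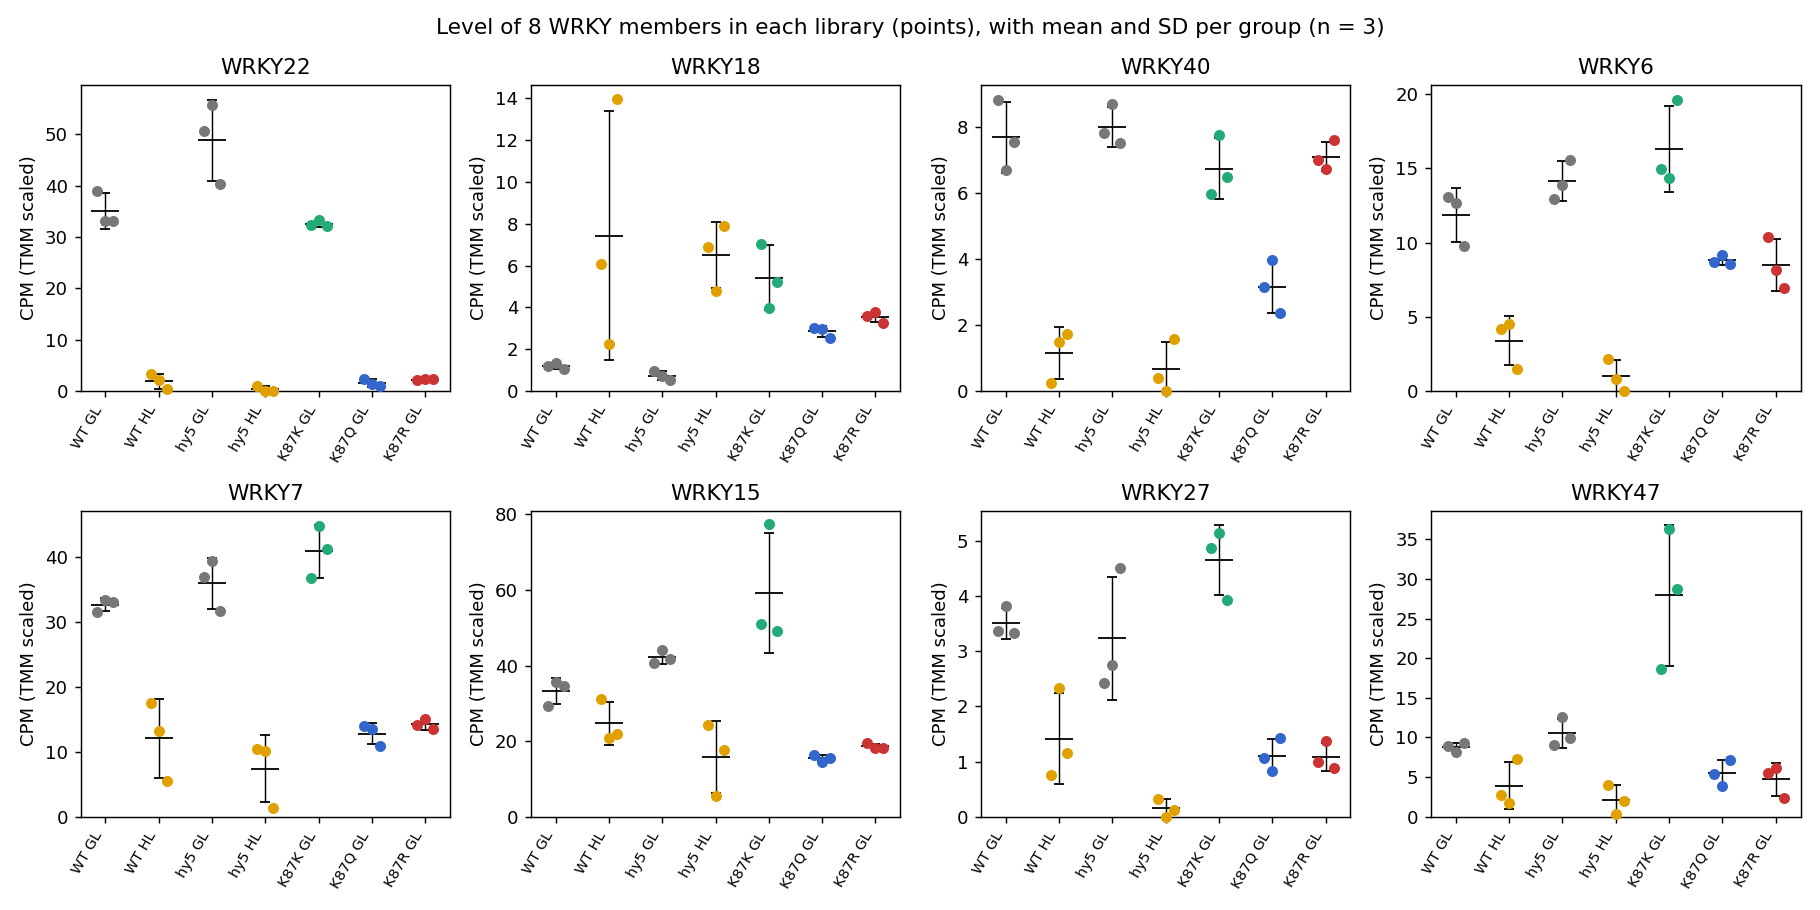
CPM of 8 members in each library (points, 3 a group), with the mean and SD of the group (horizontal mark and whiskers), on linear axes from 0 that differ between panels. WRKY22 stands between 32.1 and 55.8 CPM in WT, hy5 and K87K in growth light and at 3.26 or less in the other groups.

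The HY5-GFP lines were compared with hy5 and with each other in growth light. In K87K, with unchanged HY5, 1 member, WRKY18, was called higher than in hy5 and 0 were called lower, against 0.84% of all genes (0.44% higher and 0.4% lower). WRKY18 held 7.05, 3.99 and 5.23 CPM in K87K and 0.959, 0.709 and 0.531 in hy5 (log2 2.86 ± 0.53, adjusted p = 0.011). It was also the 1 member called between K87K and WT (log2 2.18 ± 0.50, adjusted p = 0.038), against 1.09% of all genes (0.613% higher and 0.479% lower). DESeq2 called 2 members there, among 3.84% of all genes. The K87K libraries lay above every growth-light library of WT and hy5. Over all genes 40.8% did not overlap between K87K and hy5, and 39.55% between K87K and WT. The call against hy5 was lost without any 1 hy5 library or K87K replicate 1 (adjusted p up to 0.096), and that against WT without any 1 of the 6 libraries (up to 0.19). In the fit of the 15 growth-light libraries 11 members were higher and 5 lower in K87K than in hy5 (27.9% of all genes), and 11 were higher and 2 lower than in WT (25.6%), with WRKY18 among them (adjusted p = 1.4e-06 and 2.7e-05).

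K87Q and K87R, unlike K87K, had very little WRKY22 in growth light. The gene held 32.4, 33.4 and 32.1 CPM in K87K, 2.40, 1.37 and 0.931 in K87Q and 2.06, 2.35 and 2.29 in K87R. All 6 libraries of the substituted lines lay below all growth-light libraries of WT, hy5 and K87K, in the range seen in WT in high light. Against hy5 the change of WRKY22 was log2 -4.95 ± 0.75 in K87Q (adjusted p = 0.00014) and -4.44 ± 0.73 in K87R (adjusted p = 0.00027). Against K87K it was -4.36 ± 0.73 (adjusted p = 0.00041) and -3.86 ± 0.71 (adjusted p = 0.0010). Each of these 4 calls held in every alternative tried.

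Over all members, 2 were higher and 3 lower in K87Q than in hy5, against 16.7% of all genes (7.35% higher and 9.38% lower). In K87R 7 were higher and 4 lower, against 22.4% (11.1% and 11.3%). DESeq2 called 9 members in K87Q, among 22.7% of all genes, and 13 in K87R, among 27.9%. These comparisons share the hy5 libraries. WRKY18 was higher in both, at 3.03, 2.98 and 2.55 CPM in K87Q (log2 1.93 ± 0.52, adjusted p = 0.014) and 3.58, 3.77 and 3.28 in K87R (log2 2.25 ± 0.52, adjusted p = 0.0044). Both lines lay between hy5 and K87K with no overlap. WRKY60 was higher in K87Q, at 2.75, 4.84 and 3.63 CPM against 1.60, 0.709 and 0.531 in hy5 (log2 1.95 ± 0.66, adjusted p = 0.046).

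Of the other 9 members called in K87R against hy5, 4 were of group I. WRKY4 held 14.8, 13.3 and 20.1 CPM against 7.61, 7.79 and 8.40 in hy5 (log2 1.02 ± 0.25, adjusted p = 0.0065). WRKY3 held 22.3, 23.0 and 20.1 CPM against 12.3, 10.3 and 11.9 (log2 0.92 ± 0.31, adjusted p = 0.039), and WRKY1 was higher by 1.10 ± 0.35 and WRKY32 by 2.23 ± 0.64. In group III, WRKY52, the immune receptor RRS1 that carries a WRKY domain, was higher by 1.40 ± 0.41 (adjusted p = 0.020). WRKY63, a factor of the abscisic acid response, had 46 counts in K87R and 0 in hy5, at least 11.2-fold more against the floor of 3 counts, and 1 count in K87K, a ratio of 35.2 (6.01 to 1419). WRKY63 has close relatives in WRKY64, WRKY66 and WRKY67, and WRKY52 has a close relative in WRKY16, so reads may be shared among these copies. WRKY63 and WRKY24 reached 10 counts in libraries of K87Q and K87R only, so both count as measured through the lines where they are high, and their calls there are no support. WRKY49 and WRKY42 likewise reached it in growth light only, WRKY49 in WT, hy5 and K87K and WRKY42 in these and K87Q. WRKY46 reached it in high light, K87Q and K87R only. The calls of WRKY42, WRKY46 and WRKY49 between the lights are therefore no support.

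Of the 6 measured calmodulin-binding members of group IId, WRKY7 and WRKY15 were called lower in both substituted lines and 0 were called higher. WRKY39 of the same group lay the other way without passing, at 37.6, 39.5 and 38 CPM in K87Q and 36, 43 and 43.8 in K87R against 24.7, 21 and 24 in hy5. WRKY15 held 51.1, 77.4 and 49.1 CPM in K87K, 16.2, 14.6 and 15.6 in K87Q and 19.4, 18.3 and 18.3 in K87R. Against K87K the changes were -1.94 ± 0.35 in K87Q (adjusted p = 0.00084) and -1.66 ± 0.35 in K87R (adjusted p = 0.0029), and against hy5 -1.45 ± 0.35 and -1.18 ± 0.35. WRKY7 held 36.7, 44.9 and 41.2 CPM in K87K, 14, 13.5 and 11.0 in K87Q and 14.1, 15.1 and 13.5 in K87R. Its changes were -1.67 ± 0.47 and -1.52 ± 0.47 against K87K and -1.49 ± 0.47 and -1.34 ± 0.47 against hy5 (adjusted p = 0.020, 0.034, 0.034 and 0.046). For both genes the substituted lines lay below all other growth-light libraries.

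Scaling changes these differences in size and, over the family, in direction. The members' median in K87Q against hy5 was -0.30 with the scaling used, with 23 members above 0 and 30 below, and 0.38 with library totals, with 33 above and 20 below. In K87R it was 0.36 and 1.32. The median of all genes in K87R against hy5 was 0.10 with the scaling used and 1.05 with library totals, and it was 0.10 and 0.76 in K87Q. With library totals WRKY7 and WRKY15 stayed below 0 against hy5 in both lines but no longer passed, WRKY15 at -0.79 in K87Q and -0.22 in K87R and WRKY7 at -0.83 and -0.38. The calls then numbered 7 higher and 1 lower in K87Q and 14 higher and 1 lower in K87R, with WRKY22 the lower one in both. Of all 20234 genes tested, 4350 were then higher and 859 lower in K87Q, and 7626 and 811 in K87R. In the fit of the 15 growth-light libraries 11 members were higher and 19 lower in K87Q (53.1% of all genes) and 12 and 12 in K87R (57.4%).

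**Figure D4:**
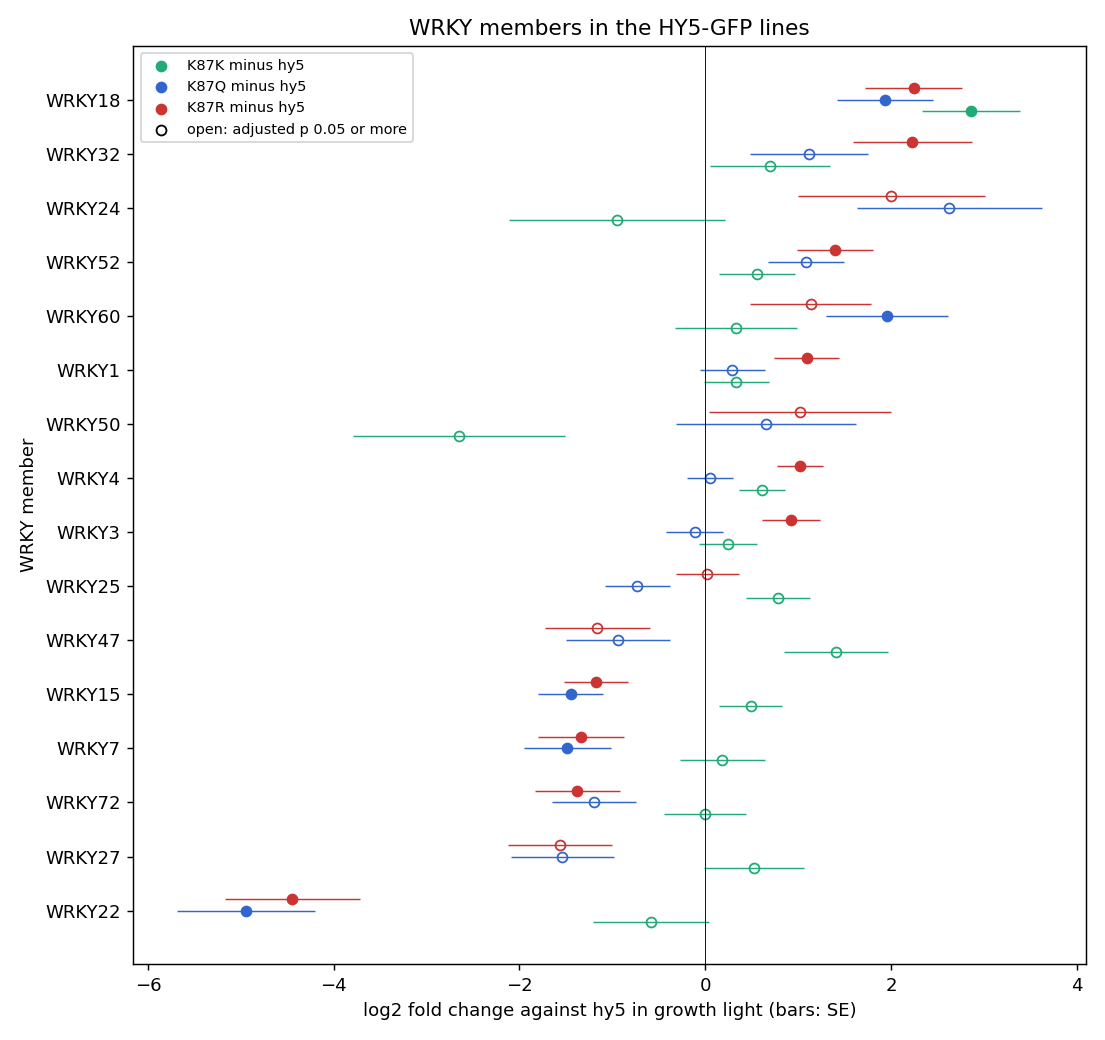
Log2 fold change against hy5 in growth light (horizontal, bars of 1 SE) of the 16 members called in a line against hy5 or in K87Q or K87R against K87K, without WRKY63, which had 0 counts in hy5. Filled points passed an adjusted p of 0.05. WRKY22 lies at -4.95 in K87Q and -4.44 in K87R, and WRKY18 lies above 0 in all 3 lines.

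Set against K87K, the line with unchanged HY5, 6 members were lower and 1 higher in K87Q, among 15.3% of all genes (8.7% lower and 6.62% higher). In K87R 6 were lower and 2 higher, among 15.1% (8.37% and 6.71%). DESeq2 called 14 members in K87Q, among 21.7% of all genes, and 9 in K87R, among 20.9%. These comparisons share the K87K libraries. Besides WRKY22, WRKY15 and WRKY7, WRKY27 and WRKY47 were lower in both. WRKY27 held 4.86, 5.14 and 3.92 CPM in K87K, 1.06, 0.831 and 1.42 in K87Q and 0.984, 1.38 and 0.884 in K87R (log2 -2.06 ± 0.56 and -2.09 ± 0.56, adjusted p = 0.016 in each). WRKY47 held 18.7, 36.4 and 28.7 CPM in K87K, 5.38, 3.91 and 7.16 in K87Q and 5.54, 6.16 and 2.39 in K87R (log2 -2.35 ± 0.58 and -2.57 ± 0.58, adjusted p = 0.0085 and 0.0052). K87K was above all other groups for WRKY47, with hy5 at 9.08, 12.6 and 9.90 CPM.

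WRKY25 was lower in K87Q than in K87K, at 5.34, 7.28 and 5.88 against 18.9, 20.6 and 13.4 CPM (log2 -1.52 ± 0.35, adjusted p = 0.0053). K87K was also above WT and hy5 in growth light, with means of 9.93 against 5.26 and 5.76 CPM per kb, and K87Q stood at 3.47. WRKY25 was not called in K87Q against hy5. WRKY24 was higher in K87Q, with 68 counts against 3 in K87K, a ratio of 13.6 (4.47 to 67.7). In K87R WRKY72 was lower by 1.37 ± 0.46 on the log2 scale, and WRKY50 and WRKY63 were higher. WRKY50, the member with the variant codon shown above, held 0.0684, 0.0767 and 0.327 CPM in K87K and 2.24, 2.02 and 1.92 in K87R (log2 3.68 ± 1.15, adjusted p = 0.036). K87K was also below WT and hy5 in growth light, with means of 0.1455 against 0.9305 and 0.9435 CPM per kb, and K87R stood at 1.905. WRKY50 was not called in K87R against hy5. With library totals the calls in K87R against K87K were 7 higher and 2 lower, and the median of all genes moved from 0.06 to 0.70. The calls in K87Q against K87K were then 1 higher and 4 lower. Of all 20234 genes tested, 3465 were then higher and 698 lower in K87R, and 2045 and 858 in K87Q. In the fit of the 15 growth-light libraries the counts of members were 5 higher and 23 lower in K87Q (50.9% of all genes) and 10 higher and 15 lower in K87R (50.5%).

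The calls in the lines were repeated with 1 library left out at a time. WRKY15 and WRKY22 passed every time in K87Q against hy5, WRKY4, WRKY18 and WRKY22 in K87R against hy5, WRKY15, WRKY22, WRKY25 and WRKY47 in K87Q against K87K, and WRKY15, WRKY22 and WRKY47 in K87R against K87K. Every other call in these 4 comparisons missed the threshold without at least 1 library, with adjusted p up to 0.18, 0.17, 0.13 and 0.15 in that order. Of the calls that passed each time, library totals ended WRKY25 in K87Q against K87K (adjusted p = 0.13), WRKY15 in K87R against K87K (0.08) and WRKY15 in K87Q against hy5 (0.16). They also ended WRKY27 in both lines against K87K (0.069 and 0.1) and WRKY7 and WRKY72 in K87R against K87K (0.092 and 0.36).

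K87Q and K87R were then compared with each other, and 0 members passed, against 0% of all genes. At an unadjusted p under 0.05 there were 6 members, for which no share over all genes was counted. DESeq2 called WRKY4 alone, lower in K87Q, among 0.331% of all genes. In the fit of the 15 growth-light libraries 1 member was higher and 10 lower in K87Q (27.3% of all genes). WRKY40 there held 3.14, 3.96 and 2.35 CPM in K87Q and 6.98, 6.71 and 7.59 in K87R (log2 -1.17 ± 0.24, adjusted p = 0.00054), and WRKY33 held 3.85, 5.23 and 6.13 against 10.2, 9.84 and 10.3 (log2 -1.0 ± 0.21, adjusted p = 0.00052). WRKY17 was the 1 higher, at 14.6, 12.6 and 15.4 against 6.98, 9.61 and 7.75 CPM. The lines did not overlap for these 3 genes, as for 37.2% of all genes, and in the fit of all libraries their adjusted p was 0.69, 0.72 and 0.78.

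The overlap of light and line responses was read only where no library is shared. The called sets below include calls that are no support. WRKY63 in K87R and WRKY24 in K87Q count as measured through K87Q and K87R only. Between the lights, WRKY42 and WRKY49 count as measured through growth light only, and WRKY46 in hy5 through high light, K87Q and K87R only. They enter the shares but are not among the shared members, and the opposite direction of WRKY24 is no support. Of the 8 members called in K87R against K87K, WRKY7, WRKY22 and WRKY72 also fell in WT in high light (37.5% of those 8 and 20% of the 15 called in WT), against 31% and 18.8% over all genes. WRKY7, WRKY15, WRKY22, WRKY27, WRKY47 and WRKY72 fell in hy5 in high light as well (75.0% of the 8 and 26.1% of the 23 called in hy5), against 45.8% and 18.9%. Of the 7 members called in K87Q against K87K, 5 fell in hy5 in high light too (71.4% and 21.7%, against 37.3% and 15.6% over all genes), while WRKY24 and WRKY25 went in opposite directions. With WT in high light they shared WRKY7 and WRKY22 (28.6% and 13.3%, against 29.2% and 18.1%), with WRKY25 opposite. Of the 5 called in K87Q against hy5, 3 were shared with WT in high light (60% and 20%, against 33.7% and 22.8%), with WRKY60 opposite. Of the 11 called in K87R against hy5, 6 were shared (54.5% and 40.0%, against 31.1% and 28%). BGLU23 was low in the same groups, high light, K87Q and K87R, the sum of the other 6 root markers was low in hy5 in high light, K87Q and K87R but not in every WT library in high light, and their part in these members' changes was not tested.

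Genes that act with WRKY factors were read from lists of upstream kinases, VQ-motif partners, salicylate pathway genes and known targets, against the same 24.8% and 36.5% of all genes called in high light, or 46.6% and 47.4% without the replicate 3 libraries. Of 8 measured upstream kinases MPK4 rose in WT in high light (log2 0.97 ± 0.24) and MPK4 and MKK4 rose in hy5, with 0 lower in either; without the replicate 3 libraries 4 rose and 1 fell in WT and 2 rose in hy5. MPK3, the kinase that activates WRKY33, was lower in K87Q and K87R than in K87K, at 31.4 and 38.2 against 94.4 mean CPM (log2 -1.59 ± 0.40 and -1.30 ± 0.39). Of 5 measured VQ partners, short proteins that bind the WRKY domain, MVQ1 fell in WT from 56.0, 50.1 and 52.3 to 16.8, 12.4 and 2.96 CPM (log2 -2.31 ± 0.66), and MVQ1, IKU1 and JAV1 fell in hy5, with 0 higher. The counts were 2 lower in WT and 3 in hy5 without the replicate 3 libraries.

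Of 11 measured salicylate pathway genes PR5 fell in WT, and PAD4 and CBP60G fell in hy5, with 0 higher. Without the replicate 3 libraries 1 rose and 5 fell in WT and 4 fell in hy5. ICS1, which makes the salicylate precursor isochorismate, held 11.2, 10.3 and 9.20 CPM in hy5, 3.34, 2.40 and 1.72 in K87Q and 4.11, 2.53 and 2.65 in K87R. Both lines were below hy5 (log2 -2.04 ± 0.45 and -1.73 ± 0.45, adjusted p = 0.0043 and 0.0099). K87K held 5.34, 3.91 and 8.10 CPM, also below every hy5 library in growth light and overlapping K87R, though 0 of the 11 genes were called in K87K against hy5. Of 15 measured targets 4 rose and 2 fell in WT in high light, and 5 rose and 2 fell in hy5, or 5 and 4 in each genotype without the replicate 3 libraries. The heat-stress factor HSFA2 rose by 9.96 ± 0.90 in WT and ACS6, an ethylene synthesis gene regulated through MAP kinases, fell by 2.32 ± 0.34. PAD3, the last enzyme of camalexin synthesis, rose in hy5 by 3.04 ± 1.12 (adjusted p = 0.039), at 0.320, 0.620 and 0 CPM in growth light and then 3.04, 0.408 and 4.38, so that replicate 2 overlapped. ABI5, a bZIP factor of abscisic acid signalling, was higher in K87Q and K87R than in hy5 (log2 4.55 ± 0.72 and 5.0 ± 0.73) and than in K87K (2.63 ± 0.63 and 3.07 ± 0.64). Seed storage and oil body markers stood at 15.1 to 26.9 summed CPM in K87Q, at 1.88 to 9.41 in K87R and at 1.68 or less elsewhere. Most of this sum in the substituted lines was CRA1, at 14.85 to 24.91 CPM in K87Q and 1.789 to 8.735 in K87R, while SESA4 was at 0 in both. The part of these markers in the ABI5 difference was not tested.

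Over the 12 comparisons 31 of 53 members (58.5%) were called at least once, against 57.1% of all genes tested. WRKY18, WRKY22 and WRKY7 were called in 6 comparisons each and WRKY15 in 5. The 22 members called in none were WRKY2, WRKY9, WRKY11, WRKY13, WRKY16, WRKY19, WRKY20, WRKY23, WRKY26, WRKY28, WRKY29, WRKY31, WRKY33, WRKY36, WRKY39, WRKY44, WRKY45, WRKY48, WRKY57, WRKY58, WRKY61 and WRKY75. Loci on the opposite strand overlap WRKY1, WRKY33, WRKY40, WRKY53 and WRKY69 among others, by 166, up to 272, 51, 341 and up to 373 bases, and no strand setting is given in the sources used here, so reads of such pairs cannot be told apart.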

How the data were processed

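The authors deposited 1 table of whole-number counts for genes in 21 libraries, without normalization. The submitters' processing notes name build TAIR10 and, without saying what each did, featureCounts 1.5.0-p3, HISAT2 2.0.5, DESeq2 1.20.0, fastp and StringTie 1.3.3b. Samples were matched to columns by the names in the labels. From these counts edgeR 4.0.16 (R 4.3.3) was run on all 21 libraries together. It used its group-wise low-count filter (20234 genes passed, all 53 measured members among them), TMM scaling and the robust quasi-likelihood test, with Benjamini-Hochberg adjustment over all genes tested and calls under 0.05. The script was tested on simulated data. CPM are scaled by TMM. Values after ± are SD for levels and SE for log2 fold changes. Many of the 12 comparisons have libraries in common, and p-values were not adjusted across comparisons. Floors of 3 counts and 95% intervals cover counting error only.

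The members and lists were chosen with earlier results of these data known. Structural groups follow the published classification. In each comparison the text names called members by the 8 largest changes either way and the 4 smallest adjusted p, a set of well-studied members, and the remaining called ones. Like-numbered libraries deviated together in hy5 against WT in high light (r from 0.159 to 0.483 over genes) and not in every pair elsewhere. Alternatives were DESeq2 1.42.0, RLE scaling, library totals, no filter, a replicate block, only the groups compared, each library left out, and, added after seeing the data, only the growth-light libraries.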

Additional observations from a re-analysis of the deposited data

How the results depend on the processing

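No called member reversed its direction under any alternative run. Of 73 calls, DESeq2 kept 72, RLE scaling 71, the replicate block 66, no filter on low counts 64 and library totals 54. Only the libraries of the groups compared kept 48 of 66, and leaving out both replicate 3 libraries in high light kept 37 of 40. The cause of the changes below was not tested.

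Counts of called members for high light in WT (15 as reported) were 9 with library totals, 24 without the replicate 3 libraries, 8 with only the groups compared, and 6 to 16 with 1 library left out. Over all genes library totals called 1885 higher and 2037 lower of 20234. Only the groups compared tested 45 members and called 1713 genes higher and 1193 lower of 18425. In hy5 (23) the counts of members were 8 with only the groups compared and 18 to 25 with 1 library left out. Only the groups compared tested 43 members there and called 1879 genes higher and 1218 lower of 17890. For the interaction (0) the counts of members were 2 by DESeq2, 13 without the replicate 3 libraries and 0 to 8 with 1 library left out.

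For hy5 against WT in growth light (0) the counts of members were 7 with the 15 growth-light libraries, 14 with only the groups compared and 0 to 0 with 1 library left out. Only the groups compared tested 45 members there and called 3589 genes higher and 3274 lower of 18102. In high light (2) the counts of members were 1 with library totals, 1 with the replicate block, 6 by DESeq2, 13 without the replicate 3 libraries, 0 with only the groups compared and 0 to 9 with 1 library left out. Only the groups compared tested 40 members there and called 0 genes higher and 1 lower of 17846.

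With the 15 growth-light libraries the lines had 16 (K87K against hy5, 1 as reported), 30 (K87Q against hy5, 5), 24 (K87R against hy5, 11), 28 (K87Q set against K87K, 7), 25 (K87R set against K87K, 8), 11 (between K87Q and K87R, 0) and 13 (between K87K and WT, 1). The fit of these 15 libraries tested 51 members. With only the groups compared the counts were 16, 24, 24, 22, 21, 10 and 14, of 43, 44, 45, 42, 45, 46 and 46 members tested. Over all genes, in the same order, 2917, 5157, 5857, 4391, 4425, 2238 and 2944 were then higher. Those lower numbered 2580, 4980, 5550, 4318, 4515, 2198 and 2105. The genes tested were 17810, 18407, 18635, 18559, 18673, 18803 and 18078. With 1 library left out the counts of members ran from 0 to 1, 2 to 4, 4 to 6, 4 to 6, 3 to 5, 0 to 0 and 0 to 0. DESeq2 gave 9 for K87Q against hy5, 14 for K87Q against K87K, 1 for K87Q against K87R and 2 for K87K against WT. K87Q against hy5 had 8 with library totals, and K87K against WT had 0 with library totals, with no filter and with the replicate block.

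In this family 19 loci were too scarce to test, and before scaling 1 count was worth 0.0675 CPM at the median depth. The replicate block changed the count of no other comparison by over 1.5 times.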
